A study of Mus musculus with 18 samples.

Results

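Fgf4, Fgf5, Fgf8 and Fgf15 encode secreted ligands of the fibroblast growth factor (FGF) family, and their mRNA was followed here from mouse embryonic stem cells (ESCs) to day 6 (d6) of neural differentiation, with and without Zeb2. The members were the rows of the RNA-seq table that carry those 4 gene symbols, and all 4 were found among the 10965 genes of the table. The table held 8 of 18 secreted FGF ligands that were looked for, the other 4 being Fgf1, Fgf3, Fgf10 and Fgf17. Each gene of the table reached 5 TPM, the transcript level scaled for gene length and depth, in at least 3 libraries, a filter that the study had applied. Fgf4 reached 5 TPM in 18 of 18 libraries, Fgf5 and Fgf15 in 9 each, and Fgf8 only in the 3 KO libraries of d6, so Fgf8 is in the table because of that group, and some excess there over the other groups was bound to be seen.

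The libraries came from control ESCs (Ctrl, Zeb2 fl/fl, both alleles floxed but not deleted) and knockout ESCs (KO, Zeb2 -/-), both of the CD1 strain, with 3 libraries per genotype and day. ESCs of d0 had been kept without feeder cells in 2i + LIF, with the MEK inhibitor PD0325901 at 0.4 µM, the GSK3 inhibitor CHIR99021 at 1 µM and LIF at 1000 U/ml, as the labels give them. For both inhibitors the methods of the study name higher concentrations than the labels. From d0 to d4 the cells grew as embryoid bodies (EBs) in medium with 15% serum, and from d4 to d6 in N2B27 medium with 500 nM retinoic acid. Each library is bulk RNA of ESCs or of many EBs, which hold several cell types, so fewer cells of a type and less RNA per cell cannot be told apart. The methods describe KO lines made by Cre from floxed CD1 ESCs, the strain of the labels; which lines gave which library is not given in the sources used here, and the p-values measure the spread between these libraries.

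FGFs leave the cell, bind heparan sulfate chains and tyrosine kinase receptors (Fgfr1 to Fgfr4), and start a relay of proteins inside the cell that ends at the kinases MEK and ERK. ERK activity induces both Ets transcription factors and feedback inhibitors such as the Sproutys and dual specificity phosphatases. In ESCs and the inner cell mass, Fgf4 is the best known source of ERK activity and is needed for cells to leave the naive state, whereas Fgf5 marks the epiblast after implantation. Fgf8 acts in gastrulation and in patterning of the midbrain and hindbrain. Fgf15, the mouse counterpart of human FGF19, is made in the embryonic nervous system and, after birth, in the ileum, from where it represses bile acid synthesis.

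In the mouse genome (GRCm38, GENCODE M21) the 4 genes lie at 3 places. Fgf4 (ENSMUSG00000050917) spans positions 144847367 to 144865243 on the plus strand of chromosome 7, and Fgf15 (ENSMUSG00000031073) spans 144896531 to 144900953 on the same strand, 31.3 kb further on. Fgf5 (ENSMUSG00000029337) lies on the plus strand of chromosome 5 from 98254184 to 98277030. Fgf8 (ENSMUSG00000025219) lies on the minus strand of chromosome 19 from 45736798 to 45742915. The annotation places the antisense genes Gm26793 and Gm39119 across the ends of Fgf15, neither of them in the table. Whether the library kit kept the strand is not given in the sources used here, so reads of these antisense genes and of Fgf15 may not be told apart.

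RefSeq (GRCm38.p6) gave the upstream sequence of Fgf4 and Fgf5. The 250 bases before each start are shown because Zeb2 is a zinc finger repressor known to bind E-box elements with the core CACCT. Capitals mark each match to CACCTG or CACCT on either strand, CACCT being contained in CACCTG.
Fgf4, chr7:144861136-144861385, plus strand: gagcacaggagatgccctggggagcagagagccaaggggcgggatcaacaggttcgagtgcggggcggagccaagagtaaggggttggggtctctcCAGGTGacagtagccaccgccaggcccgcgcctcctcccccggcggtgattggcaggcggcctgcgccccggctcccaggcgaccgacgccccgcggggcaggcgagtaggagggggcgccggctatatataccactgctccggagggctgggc
Fgf5, chr5:98253934-98254183, plus strand: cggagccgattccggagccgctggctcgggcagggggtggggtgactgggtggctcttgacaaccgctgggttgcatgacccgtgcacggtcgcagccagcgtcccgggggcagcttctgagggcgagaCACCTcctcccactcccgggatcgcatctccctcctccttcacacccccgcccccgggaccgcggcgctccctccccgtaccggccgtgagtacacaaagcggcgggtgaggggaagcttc

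The Fgf4 window held 1 CACCTG on the opposite strand, from 154 to 149 bases before the start. The Fgf5 window held 1 CACCT on the strand of the gene, from 121 to 117 bases before the start, and no CACCTG. Both windows are rich in G and C, at 71.2% for Fgf4 and 70.8% for Fgf5. Of all 32851 RefSeq windows of this length, 46.0% held CACCT and 17.2% held CACCTG, so a match of this kind is common. The octamer ATGCAAAT, the letters read by Oct4 (Pou5f1), was on neither strand of either window and in 1.60% of all windows. These matches are letters in a window, and binding was not measured in these libraries. The paper searched for closely spaced pairs of such motifs in wider promoter regions, so a single match here is not the motif of the paper.

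Zeb2 itself, on chromosome 2, had 0.129 ± 0.00754 TPM in Ctrl ESCs (mean ± SD, n = 3 here and below), and its Ctrl mean rose to 1.36 ± 0.121 by d4 and to 7.66 ± 0.138 by d6. In KO it was at 0.0216 ± 0.00526, 0.164 ± 0.0388 and 0.681 ± 0.0763 TPM on those days, lower than in Ctrl at d4 (log2 difference -1.02, adjusted p = 2.56e-06) and at d6 (-2.37, adjusted p = 6.98e-11). The reads left in KO are counted over the whole gene, so they do not tell which exons they come from. Depth was 9622622 to 15617675 reads per library on the genes of the table. Each TPM value of the table also holds 1 added read, so that a library with 0 reads shows the TPM of 1 read. Differences below are on the log2(TPM + 1) scale from limma, which understates changes of genes near or under 1 TPM, and a gene was called at an adjusted p below 0.01.

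**Figure D1:**
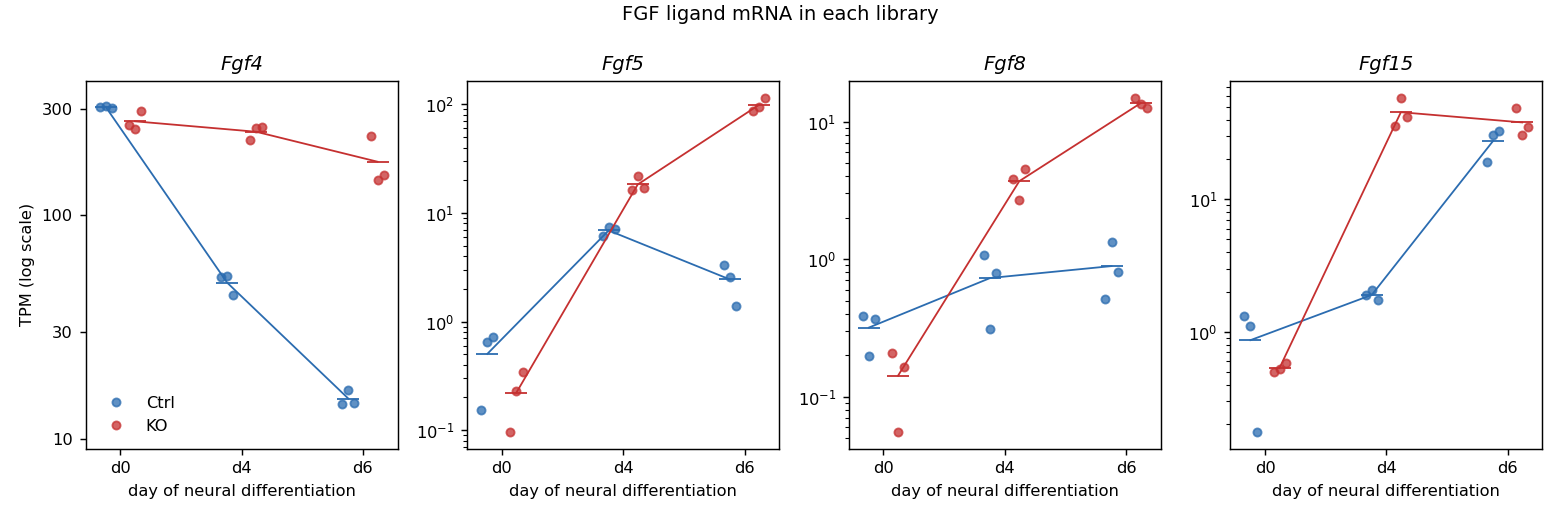
TPM (log scale) of each ligand in each of the 18 libraries by day of neural differentiation; points are libraries (Ctrl blue, KO red), horizontal marks are means of 3 and lines join the means. Fgf4 fell from 306 to 15.1 TPM in Ctrl and was at 174 TPM in KO at d6, Fgf5 and Fgf8 were highest in KO at d6, and Fgf15 rose by d4 in KO and by d6 in Ctrl.

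Fgf4 was abundant in ground-state ESCs of both genotypes. It fell at each step of control differentiation, whereas in KO most of it was still present at d6. The Ctrl libraries held 307, 308 and 303 TPM at d0. They held 52.7, 53.4 and 43.9 at d4, and 14.3, 16.5 and 14.5 at d6. The KO values were 254, 245 and 294 at d0, 217, 246 and 249 by d4, and 227, 144 and 152 by d6. All KO libraries of d4 and d6 thus lay above every Ctrl library of those days, and the widest spread was in KO at d6, where replicate 1 stood above the other two. The mean at d4 was 50.0 ± 5.28 TPM in Ctrl and 237 ± 17.3 in KO, a ratio of 4.75 (log2 difference 2.23, SE 0.13, adjusted p = 1.67e-09). At d6 it was 15.1 ± 1.19 in Ctrl and 174 ± 45.4 in KO, a ratio of 11.6 (log2 difference 3.42, SE 0.13, adjusted p = 3.74e-12). At d0 the means of 306 ± 2.71 and 264 ± 25.9 TPM gave a log2 difference of -0.22 (95% interval of -0.50 to 0.06) that did not pass the test (adjusted p = 0.216).

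Over time, Fgf4 fell in Ctrl by 2.60 on the log2 scale from d0 to d4 (adjusted p = 5.57e-11) and by 1.66 from d4 to d6 (adjusted p = 3.45e-08), a 20.3-fold drop in mean TPM over both steps. In KO the step from d0 to d4 was -0.15 (95% interval of -0.43 to 0.13, adjusted p = 0.326), and the step from d4 to d6 was -0.47 (adjusted p = 0.00671), leaving 66.0% of the d0 mean. The second KO step was small enough that its call depended on single libraries: without KO d6 replicate 2 it was -0.35 (adjusted p = 0.0446), and it also missed the threshold without KO d6 replicate 3 or without KO d4 replicate 2 or 3. The change since the preceding day differed between the genotypes by 2.44 at d4 (SE 0.19, adjusted p = 6.27e-08) and by 1.19 at d6 (SE 0.19, adjusted p = 2.14e-04). Ordered by mean TPM, Ctrl d0 led without overlap, KO d0, KO d4 and KO d6 followed with neighbours that overlapped, and Ctrl d4 and Ctrl d6 came last, each apart from the group above. In Ctrl the gene went from above 95.2% of the genes of the table at d0 to above 28.3% at d6; in KO it was still above 90.5% at d6.

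Fgf5, the epiblast marker, rose in both genotypes by d4, and thereafter rose further in KO and fell in Ctrl. It was close to the detection limit at d0, with 1, 6 and 6 reads in the Ctrl libraries and 0, 2 and 2 in KO. At d4 its TPM was 6.18, 7.49 and 7.04 in Ctrl and 16.1, 22.1 and 16.8 in KO. At d6 it was 3.35, 2.58 and 1.40 in Ctrl, on 14 to 28 reads, and 87.1, 94.9 and 115 in KO, on 856 to 1190 reads. The genotypes did not overlap at d4 or d6, and no Ctrl library of any day reached the lowest KO library of d4. The mean ratio of KO to Ctrl was 2.66 at d4 (log2 difference 1.28, SE 0.21, adjusted p = 8.01e-05) and 40.5 at d6 (log2 difference 4.89, SE 0.21, adjusted p = 1.13e-11). At d0 the log2 difference was -0.28 (adjusted p = 0.310), which at these read numbers says little.

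The course of Fgf5 between d4 and d6 ran in opposite directions. In Ctrl the mean fell from 6.90 ± 0.665 to 2.44 ± 0.979 TPM (log2 change -1.24, adjusted p = 9.66e-05). In KO it rose from 18.3 ± 3.27 to 99.0 ± 14.5 TPM, 5.40-fold (log2 change 2.37, adjusted p = 1.35e-07). From d0 to d4 it rose in both, with a log2 change of 2.41 in Ctrl (adjusted p = 2.65e-08) and of 3.97 in KO (adjusted p = 9.58e-11). The change since the preceding day differed between genotypes by 1.56 at d4 (SE 0.29, adjusted p = 4.05e-04) and by 3.61 at d6 (SE 0.29, adjusted p = 2.80e-07); with voom on recovered reads the first was 2.81 and not called (adjusted p = 0.0422). The order of means was KO d6, KO d4, Ctrl d4, Ctrl d6, Ctrl d0 and KO d0, and only the last pair overlapped.

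Fgf8 had the lowest mean TPM of the 4 ligands in each group and was near the detection limit in Ctrl on each day. Its Ctrl TPM was 0.388, 0.198 and 0.368 in ESCs, 1.08, 0.310 and 0.794 at d4, and 0.517, 1.34 and 0.809 at d6, on 2 to 20 reads per library. In KO it was 0.207, 0.0553 and 0.163 for ESCs on 0 to 2 reads, 3.84, 2.69 and 4.55 at d4 on 40 to 55 reads, and 14.9, 13.4 and 12.5 at d6 on 178 to 202 reads. The KO libraries of d4 and d6 lay above each Ctrl library of the series. The mean was 3.69 ± 0.936 against 0.729 ± 0.391 TPM at d4, a ratio of 5.06 (log2 difference 1.45, SE 0.20, adjusted p = 1.81e-05), and 13.6 ± 1.21 against 0.890 ± 0.419 at d6, a ratio of 15.2 (log2 difference 2.97, SE 0.20, adjusted p = 3.18e-09). At d0 the log2 difference was -0.21 (adjusted p = 0.453), on a total of 12 Ctrl and 3 KO reads.

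No change of Fgf8 between days passed the test in Ctrl, with log2 changes of 0.37 by d4 (adjusted p = 0.107) and 0.13 from d4 to d6 (adjusted p = 0.606); both turned negative under quantile normalization (-0.29 and -0.03). In KO it rose at each step, by 2.02 (adjusted p = 1.90e-07) and then 1.65 on the log2 scale (adjusted p = 4.50e-06), 3.67-fold in mean TPM over the second. The difference between genotypes in the change was 1.65 by d4 (SE 0.28, adjusted p = 1.90e-04) and 1.52 from d4 to d6 (SE 0.28, adjusted p = 9.95e-04). The d4 to d6 difference missed the threshold with a pseudocount of 0.1 (1.58, adjusted p = 0.0672) and with voom on recovered reads (1.52, adjusted p = 0.0705). By mean TPM, KO d6 and KO d4 stood apart, and the other groups overlapped with their neighbours.

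Fgf15 levels were far apart between the genotypes at d4, when its rise was called in KO alone, and overlapped at d6. Its TPM in Ctrl was 1.32, 1.10 and 0.175 in ESCs, 1.90, 2.07 and 1.74 at d4, and 19.3, 30.6 and 33.1 at d6. The KO libraries had 0.494, 0.526 and 0.583 in ESCs, 36.1, 58.5 and 41.8 at d4, and 49.1, 30.4 and 34.9 at d6. The d4 libraries rested on 11 to 13 Ctrl reads and 193 to 373 KO reads, and at d6 KO replicate 2 lay below Ctrl replicates 2 and 3. The d4 means of 1.90 ± 0.161 and 45.5 ± 11.6 TPM gave a ratio of 23.9 (log2 difference 3.97, SE 0.26, adjusted p = 4.18e-09). At d6 the means of 27.6 ± 7.35 and 38.1 ± 9.76 TPM gave a log2 difference of 0.46 that missed the threshold (95% interval of -0.08 to 1.00, adjusted p = 0.131). At d0 the log2 difference was -0.22 (adjusted p = 0.533), on 0 to 9 reads per library.

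In Ctrl most of the rise of Fgf15 took place in the second step, from d4 to d6, where the mean TPM went up 14.5-fold (log2 change 3.27, adjusted p = 2.96e-08). The first Ctrl step was 0.70 (95% interval of 0.16 to 1.24, adjusted p = 0.0212), and each Ctrl library of d4 lay above those of d0. Without Ctrl d0 replicate 1 that step passed the test (0.88, adjusted p = 0.00917), and with quantile normalization it was -0.20. In KO it took place in the first step, with a log2 change of 4.89 (adjusted p = 9.76e-11), and the second step was -0.25 (adjusted p = 0.441). The change differed between genotypes by 4.20 by d4 (SE 0.36, adjusted p = 2.26e-07) and by -3.52 from d4 to d6 (SE 0.36, adjusted p = 3.35e-06). By mean TPM, KO d4, KO d6 and Ctrl d6 overlapped with their neighbours at the top, Ctrl d4 stood apart below them, and Ctrl d0 and KO d0 overlapped at the bottom.

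**Figure D2:**
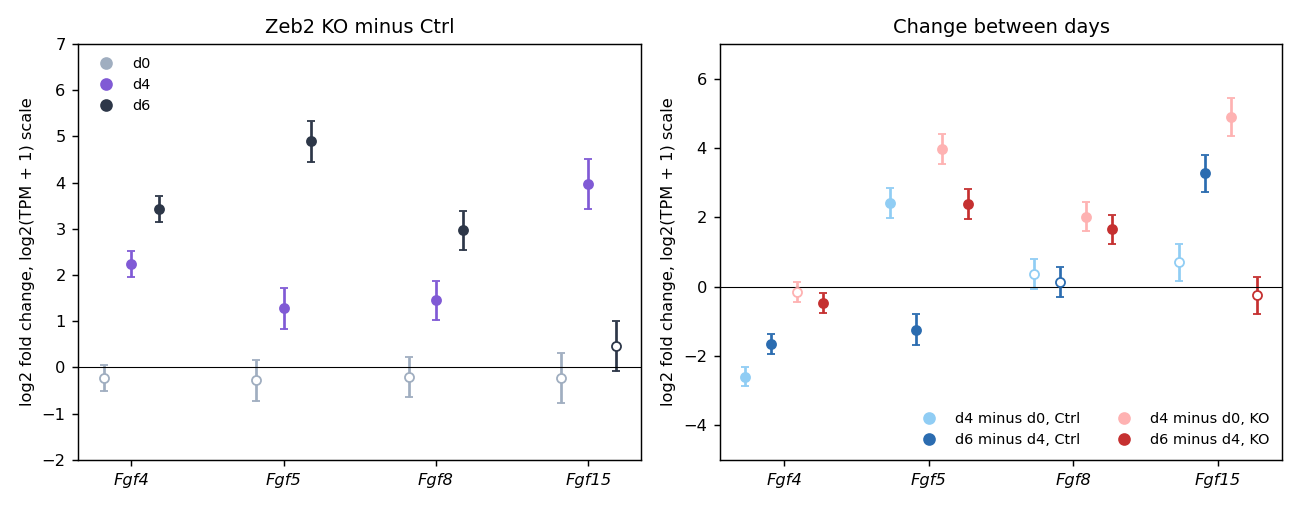
Log2 fold changes on the log2(TPM + 1) scale with 95% intervals, for KO minus Ctrl by day (left) and for each step between days within a genotype (right); filled points were called at an adjusted p below 0.01, open points were not. No ligand was called at d0, the 4 were called at d4, and Fgf15 (0.46) was the one not called at d6.

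Counted together, none of the 4 ligands was called at d0, when 27.0% of all genes of the table were. At d4 the 4 were called higher in KO, against 12.7% of all genes, and at d6 it was 3 of 4, against 17.9%, Fgf8, kept in the table by KO d6, among them. Since the 4 were chosen with earlier results of these data known, these counts are only a description. The median log2 difference of the 4 went from -0.22 in ESCs to 1.84 and 3.19 on the later days, beside -0.07, -0.16 and -0.14 over all genes. From d0 to d4 in Ctrl, 1 rose (45.1% of all genes did) and 1 fell (22.3%), and in KO 3 rose (35.8%) and none fell (20.9%). The median change of all genes in that step was 0.26 in Ctrl and 0.15 in KO, and near 0 after median-ratio rescaling (-0.02 and -0.01). From d4 to d6 in Ctrl, 1 rose (22.6%) and 2 fell (21.5%), and in KO 2 rose (21.5%) and 1 fell (19.9%). The difference between genotypes in the change was called for 4 of 4 in the first step (36.1% of all genes) and for 4 of 4 in the second (13.4%), with Fgf15 in the opposite direction in the second.

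Markers of cell types also differed between days and genotypes in these libraries, in part like Fgf4 and Fgf5. The part of these cell types in the ligand differences was not tested. The summed TPM of 8 pluripotency markers ranged from 5192 to 5435 in Ctrl ESCs, from 2915 to 3539 by d4 and from 988 to 1140 by d6. In KO it ranged from 5010 to 5377, from 4383 to 4863 and from 3417 to 3676, and 6 of the 8 were called higher and 1 lower at d6. As for Fgf4, the genotypes did not overlap at d4 or d6, and KO was the higher. Within KO, Utf1 rose from 160 ± 6.38 TPM at d0 to 1501 ± 267 at d6, and Tdgf1 from 207 ± 16.3 to 374 ± 126. The other markers of this list had lower KO means at d6 than at d0, such as Nanog (300 ± 28.3 and 1199 ± 109). Utf1 thus made up a large part of the KO sum at d6. Oct4 (Pou5f1) was at 101 ± 11.3 TPM in Ctrl and 652 ± 81.7 in KO at d6. Of the naive markers, Klf4 (11.0 ± 0.616 and 5.81 ± 0.810) and Esrrb (22.9 ± 3.10 and 36.8 ± 1.19) were low in both. Zfp42, also a naive marker, stayed higher, with means of 95.4 TPM in Ctrl and 140 in KO at d6. Its means at d0 were 851 TPM in Ctrl and 964 in KO. The sum of 4 postimplantation epiblast markers other than Fgf5 was 101 to 140 in the Ctrl libraries of d4 and d6, and in KO 457 to 649 at d4 and 815 to 932 at d6, with 4 of 4 called higher on both days. Like Fgf5, this sum was highest in KO at d6.

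Most markers of neural, endodermal and fibroblast cells were lower in KO at d6. The d6 samples are labelled as neural progenitors, and 7 neural progenitor markers summed to 260 to 283 TPM in Ctrl but to 64.1 to 75.7 in KO, where 6 of 7 were called lower. Pax6, a neural transcription factor, was at 34.6 ± 0.697 TPM in Ctrl and 0.825 ± 0.109 in KO, so that this defining marker was near 0 in the KO libraries of that day. The sum of 7 endoderm markers was 165 to 287 TPM in Ctrl and 34.0 to 54.6 in KO at d6, and 7 of 7 were called lower. Of 8 primitive streak and mesoderm markers only 2 were in the table, at a sum of 2.91 to 3.30 TPM in Ctrl and 10.7 to 13.4 in KO at d6, with 1 called higher. Fibroblast markers, which feeder cells would bring, summed to 32.2 to 39.4 TPM in Ctrl and 34.0 to 46.3 in KO at d6, with 3 of 4 called lower and 1 higher. The higher one was Thy1, at 32.8 ± 5.82 TPM in KO and 5.19 ± 1.81 in Ctrl, which made up most of the KO sum. Afp, Ttr, Gata6, Foxa2, Hes5, Col1a1 and Col1a2 had a mean above 5 TPM only in Ctrl at d6. For these markers the filter of the study thus favoured a lower level in KO, which limits the counts called lower.

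As a share of the TPM of the 8 ligands in the table, Fgf4 made up nearly the whole at d0 and less at each later day. The summed ligand TPM in Ctrl was 324 ± 5.66 in ESCs, 97.7 ± 9.53 at d4 and 67.2 ± 9.82 at d6, while in KO it was 285 ± 24.9, 390 ± 20.4 and 343 ± 48.8. The share of Fgf4 in Ctrl went from 94.6% ± 0.840 to 51.2% ± 2.54 and 22.7% ± 2.78, and in KO from 92.7% ± 1.02 to 60.8% ± 1.40 and 50.3% ± 5.99. At d6 the largest share was that of Fgf15 in Ctrl (40.6% ± 5.77), followed by Fgf4. In KO it was Fgf4, followed by Fgf5 (29.4% ± 6.65). Together the 4 ligands held 68.4% ± 1.22 of the sum in Ctrl and 94.7% ± 0.632 in KO at d6.

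**Figure D3:**
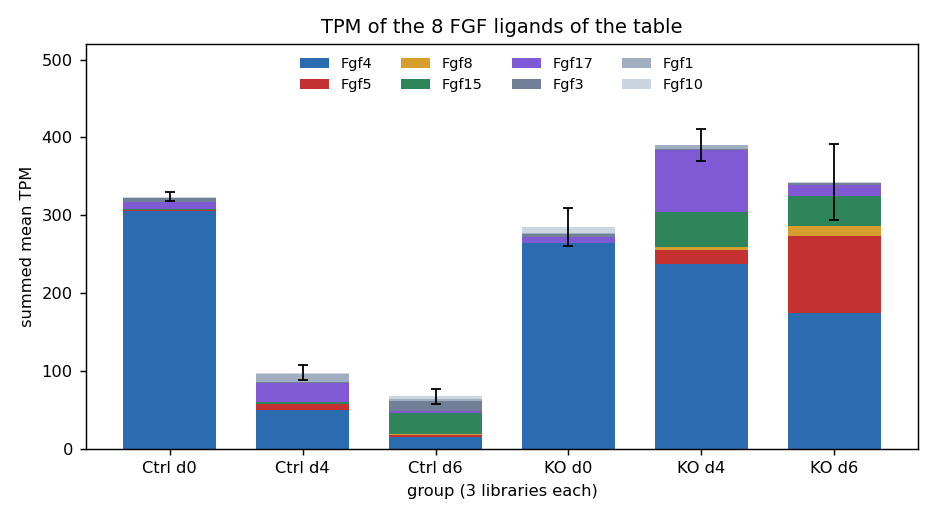
Mean TPM of the 8 secreted FGF ligands of the table, stacked by group (3 libraries each); the error bar is the SD of the sum over the 3 libraries. The sum fell to 67.2 TPM in Ctrl at d6 and was 343 TPM in KO, most of it Fgf4 and Fgf5.

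Of the other 4 ligands in the table, only Fgf17 was called higher in KO at d4 and d6. Fgf17, of the same subfamily as Fgf8, had 24.5 ± 5.90 TPM in Ctrl and 78.7 ± 10.6 in KO at d4 (log2 difference 1.66, adjusted p = 2.10e-05), and 2.98 ± 1.02 against 14.0 ± 1.04 at d6 (1.94, adjusted p = 2.50e-06). It peaked at d4 in both genotypes, unlike Fgf8, whose KO mean was highest at d6. Fgf3, which neighbours Fgf4, was lower in KO at d6, at 2.18 ± 1.02 against 12.8 ± 1.35 TPM (-2.16, adjusted p = 1.18e-06). Fgf1, an FGF without a classical signal peptide, was lower at d4 (-1.10, adjusted p = 1.63e-04), and at d6 its difference of -0.68 (adjusted p = 0.00586) was lost under 8 of 26 alternatives. Fgf10, known from limb and lung outgrowth, was higher in KO at d0 (1.66, adjusted p = 4.02e-06) and lower at d4 (-0.93) and d6 (-1.20). Among the intracellular FGF homologous factors, which do not act through these receptors, Fgf13 was called at d4 (0.59, lost under 14 of 26 alternatives) and Fgf11 on no day. Fgf1 reached 5 TPM only in Ctrl at d4, and Fgf10 only in KO at d0. Fgf3 passed the filter of the study only with Ctrl d6, and Fgf13 only with KO d4. Their calls on those days were thus favoured by the filter.

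FGF receptors were called in the opposite direction. The table held 6 of the 7 receptor and coreceptor genes listed, and in KO 4 were called lower at d4 (32.7% of all genes were) and 6 at d6 (34.3%), none higher. With quantile normalization these counts were 3 and 4 lower, and Fgfr4 was called higher at d4 with it, with median-ratio rescaling and with voom on recovered reads. Fgfr1, the main receptor of ESCs, had 101 ± 6.95 TPM in Ctrl and 51.0 ± 3.30 in KO at d4 (log2 difference -0.97, adjusted p = 8.17e-08), and 50.4 ± 2.21 against 38.4 ± 3.02 at d6 (-0.39, adjusted p = 6.14e-04). Its d6 call was lost with median-ratio rescaling and with quantile normalization. Fgfr2 reached 44.1 ± 0.627 TPM in Ctrl and 6.38 ± 0.663 in KO at d6 (-2.62, adjusted p = 4.98e-11). Fgfr3, a marker of neural progenitors among other tissues, reached 19.5 ± 0.228 TPM in Ctrl and 1.52 ± 0.377 in KO (-3.03, adjusted p = 4.98e-11). These 3 receptors already differed at d0, by 0.48, -1.11 and -0.57, the last of which was lost under 7 of 26 alternatives. Klb, the coreceptor by which Fgf15 signals in liver, had 6.37 ± 2.29 TPM in Ctrl and 2.07 ± 0.684 in KO at d6 (-1.25, adjusted p = 5.09e-05), whereas at d0 it was higher in KO, at 14.8 ± 1.84 against 7.42 ± 0.969 TPM (0.91, adjusted p = 0.00193). That d0 call was lost without Ctrl d0 replicate 2 or KO d0 replicate 1. Fgfr4 (-0.77, lost under 4 of 26 alternatives) and the receptor without a kinase domain, Fgfrl1 (-0.69), were lower at d6 too. Without the Ctrl libraries of d6, neither Fgfr3 nor Fgfr4 would have passed the filter of 5 TPM in 3 libraries. For both genes the filter thus favoured a higher level in Ctrl than in KO at d6.

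Many genes that hold ligands at the cell surface were also lower in KO. Of 17 ligand carriers and enzymes of heparan sulfate chains, 10 were lower and none higher at d4 (32.7% and 12.7% of all genes), and 13 were lower and 1 higher at d6 (34.3% and 17.9%), with a median log2 difference of -0.53 beside -0.14 over all genes. With median-ratio rescaling of the libraries, 6 and 10 were lower. Hs6st2, which adds 6-O sulfate to the chains, was at 29.2 ± 2.39 TPM in Ctrl and 6.20 ± 0.449 in KO at d6 (-2.07, adjusted p = 5.63e-10). Ndst1, which starts sulfation of the chains, was lower as well, at 23.5 ± 1.65 against 82.6 ± 4.25 TPM (-1.77, adjusted p = 6.02e-10). The single gene called higher was Fgfbp1, a secreted carrier that releases FGFs from the matrix, at 32.0 ± 5.17 against 9.49 ± 1.71 TPM (1.65, adjusted p = 1.43e-06). Its relative Fgfbp3 was lower (-1.54, adjusted p = 1.10e-04).

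In the signal relay inside the cell, called differences went in both directions. Of 13 relay genes in the table, 2 were higher and 7 lower in KO at d4, beside 12.7% and 32.7% of all genes. At d6, 3 were higher and 5 lower, near the 17.9% and 34.3% of all genes. The medians were -0.25 and -0.06. The MEK kinase Map2k2 (log2 difference -0.55, adjusted p = 4.59e-06) and the receptor adaptor Frs2 (-0.48, adjusted p = 8.58e-05) were lower in KO at d4.

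Genes induced by ERK were more often higher than lower in KO at d6, the reverse of all genes. Of 16 feedback inhibitors and ERK-induced targets in the table, 8 were higher and 1 lower at d6, beside 17.9% and 34.3% of all genes, with a median of 0.70. At d4, 3 were higher and 7 lower, with a median of -0.38, a lean that all genes shared (12.7% and 32.7%). Between d4 and d6, 9 of the 16 fell in Ctrl and 2 rose, beside 21.5% and 22.6% of all genes, while in KO 2 fell and 5 rose, beside 19.9% and 21.5%. For 11 the difference between genotypes in that change was called, each in the direction of KO, against 13.4% of all genes in either direction. Etv5, an Ets factor of ESCs, had 22.5, 22.3 and 21.9 TPM in the Ctrl libraries of d6 and 136, 134 and 151 in KO (log2 difference 2.61, adjusted p = 1.97e-14). The Sprouty genes Spry1 (1.78), Spry2 (1.55) and Spry4 (1.22) were higher at d6 as well. Spry4 had been lower in KO at d4, at 18.4 ± 3.72 against 37.4 ± 3.28 TPM (adjusted p = 0.00122), a call lost with a pseudocount of 0.1 and with quantile normalization. Dusp6, the ERK phosphatase, followed at 290 ± 17.9 against 146 ± 17.2 TPM at d6 (0.99, adjusted p = 1.14e-05) with no difference called at d4 (-0.02, adjusted p = 0.895). Over the whole pathway, 24 of 58 listed genes in the table were called at d0, when 27.0% of all genes were, 37 at d4, when 45.5% were, and 41 at d6, when 52.3% were. A further 18 of the 76 genes listed were not in the table, so these counts cover the genes that passed the filter.

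**Figure D4:**
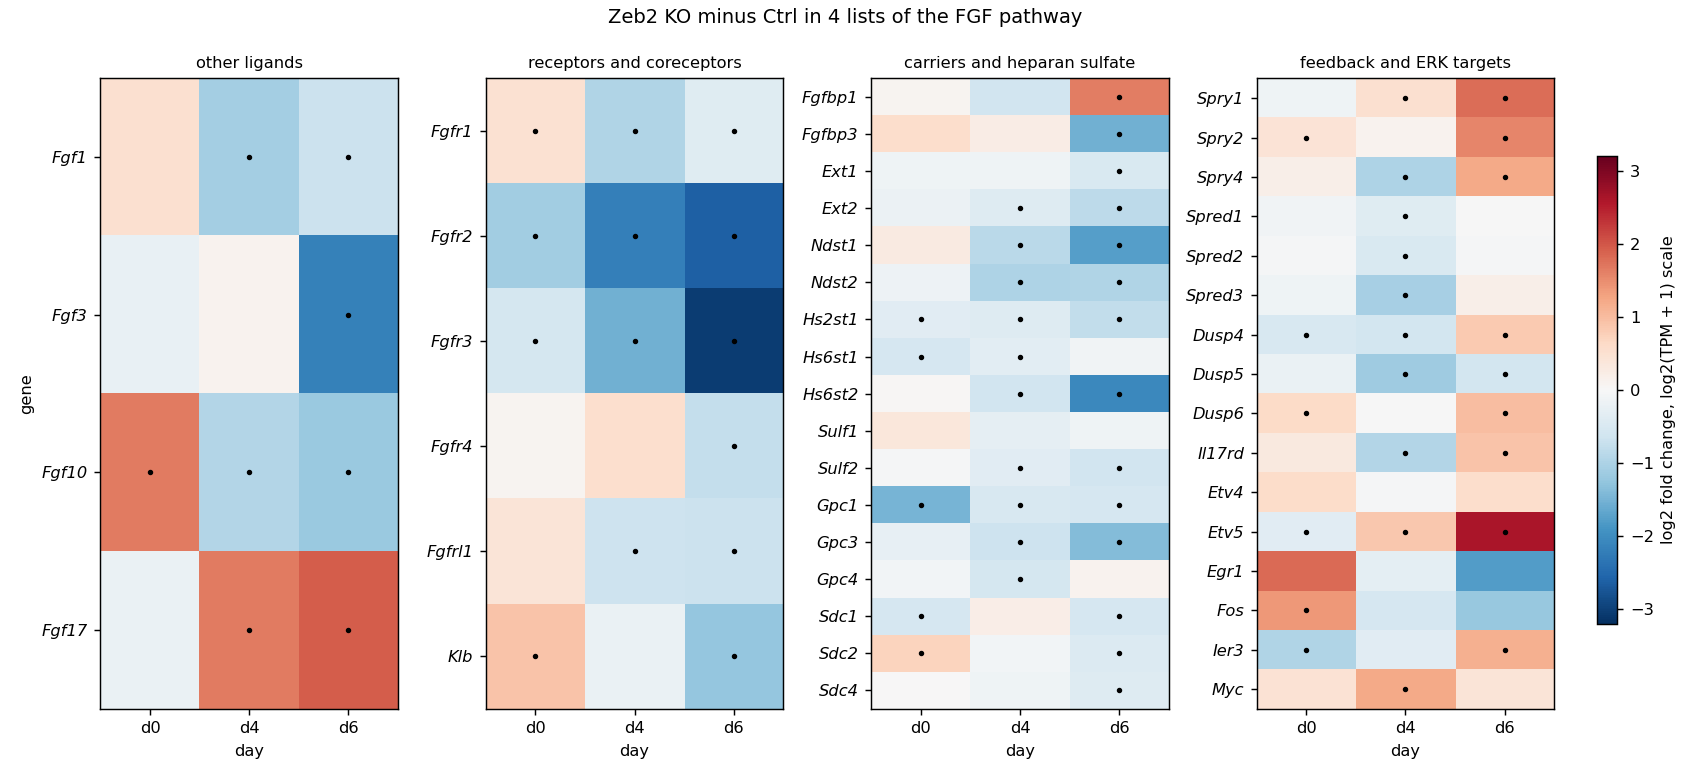
Log2 difference KO minus Ctrl (colour, log2(TPM + 1) scale) at d0, d4 and d6 for ligands, receptors, carriers and ERK targets of the FGF pathway in the table; a dot marks an adjusted p below 0.01. Receptors are blue at d6, with Fgfr3 at -3.03, while Etv5 (2.61) and the 3 Sprouty genes are red and Egr1 (-1.80, not called) is blue. Fgfr3 passed the filter of the study through the Ctrl libraries of d6.

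On chromosome 7 the ligands sit in a cluster in which neighbours differed in direction. Fgf3 lies 2.93 kb before the annotated start of Fgf4, and the RefSeq start of Fgf4 is further downstream inside that annotation. Beyond Fgf15 follow LTO1 and, 29.0 kb from Fgf15, Ccnd1 on the other strand, which encodes the G1 cyclin D1. Ccnd1 had 51.0 TPM in Ctrl and 216 in KO at d4 (log2 difference 2.06, adjusted p = 4.00e-09) and 69.7 against 152 at d6 (1.11, adjusted p = 2.07e-06). LTO1, whose annotation overlaps the end of Ccnd1 so that reads there may not be told apart, was lower in KO on both days (-0.55 and -0.53). Fadd, 265 kb before Fgf4, was lower at d6 (-1.06, adjusted p = 9.37e-06), as was Fgf3. The 840 genes of chromosome 7 had a median of -0.17 at d4 and -0.12 at d6, close to that of all genes.

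**Figure D5:**
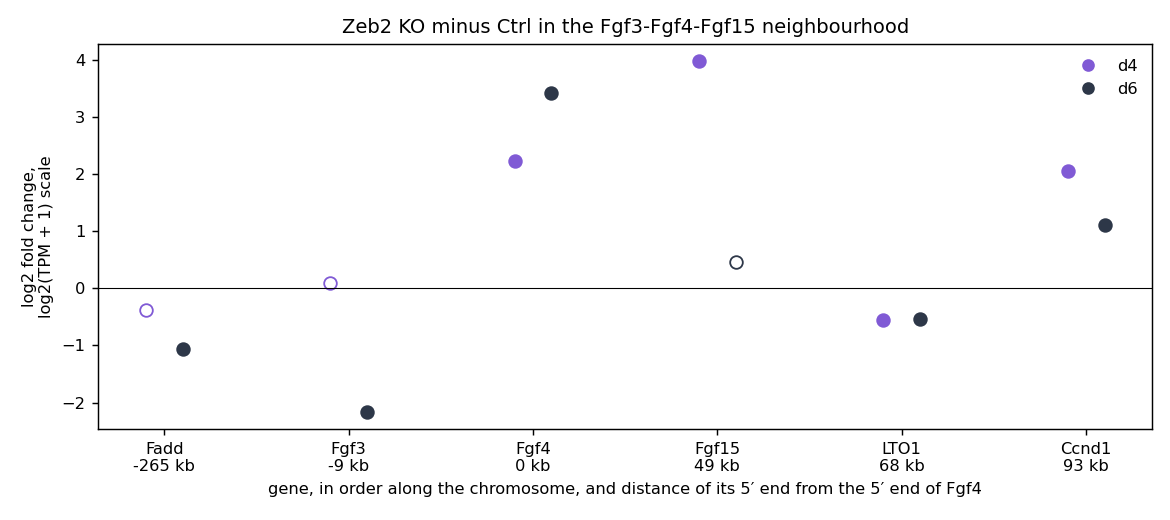
Log2 difference KO minus Ctrl at d4 and d6 for genes of the table within 300 kb of Fgf4, in chromosome order (not to scale), with the distance of the 5′ end of each gene from that of Fgf4 in kb; filled points were called at an adjusted p below 0.01. Fgf4, Fgf15 at d4 and Ccnd1 are above 0, and Fgf3 at d6 (-2.16), LTO1 and Fadd are below.

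Around Fgf8 on chromosome 19, the table held 8 genes within 300 kb. The nearest, Npm3, a nucleoplasmin family chaperone 4.82 kb away, was higher in KO at d4 (0.78, adjusted p = 2.06e-06) and at d6 (1.30, adjusted p = 3.10e-09). Gm6807 was also higher on both days (0.84 and 0.81), Mgea5 was lower at d4 (-0.31) and Ldb1 lower at d6 (-0.84), and Poll, Fbxw4, Armh3 and Hps6 were not called at d4 or d6. No gene of the table lay within 300 kb of Fgf5.

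The genes whose log2(TPM + 1) was most alike over the 18 libraries, by Pearson's r, are given as a description, since the libraries fall into 6 groups. For Fgf4 they were Hspbap1 (0.984), Gm6798 (0.980) and Bcat2 (0.978), each highest at d0. For Fgf5 they were Igfbp3 (0.984), Rlim (0.977) and Ap1s3 (0.975), each highest in KO at d6. For Fgf8 they were Ccrn4l (0.967), Bspry (0.966) and Rasd2 (0.966), also highest in KO at d6. For Fgf15 they were Has2 (0.969), Itm2a (0.948) and Trib1 (0.937). Has2 makes hyaluronan, and its TPM went from 1.65 at d4 to 10.2 at d6 in Ctrl and from 29.2 to 41.5 in KO.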

How the data were processed

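RNA of 18 libraries (2 genotypes, 3 days, 3 libraries each) was aligned by the authors with TopHat2 2.0.13 to GRCm38 and counted with featureCounts 1.4.6. The authors deposited TPM values, after removing short noncoding, low and least variable genes. They also deposited 3 score columns per gene, not used here, which hold the variance and, in 2 identical columns, the variance divided by the mean. Of 11046 rows, 81 repeated rows were left out. Whole reads were recovered from TPM for all 10965 genes (largest distance from a whole number 6.0e-10) and gave the depth, which limits low genes most.

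All genes were fitted on log2(TPM + 1) by limma (version 3.58.1, R 4.3.3), with 6 group means, eBayes with trend and Benjamini-Hochberg over all genes. The fit was also run on simulated data simpler than these libraries, as a check of the code and not of the calls made here. An exact permutation test of 3 against 3 cannot give a p below 0.1. Alternatives covered the pseudocount, a TPM minimum, scaling, groups fitted, trend, voom, a replicate block and each library left out. Figures used Python 3.11.15 and matplotlib 3.10.9. The members and gene lists were chosen with earlier results of these data known. The genes named are the members, other FGF ligands and receptors in the table, the 4 called genes with the largest changes at d4 or d6 in each other pathway list, the 3 genes most like each member, genes within 300 kb, Zeb2 and markers; Dusp6 was added after its values were seen, and some genes of the signal relay are not reported here. Positions came from GENCODE M21. RefSeq promoters were found for 2 of the 4 members.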

Additional observations from a re-analysis of the deposited data

Results flagged for a closer look

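The change between days differed between KO and Ctrl for each of the 4 ligands in both steps, by the interaction term of limma. From d0 to d4 the difference (KO minus Ctrl, log2) was 2.44 for Fgf4, 1.56 for Fgf5, 1.65 for Fgf8 and 4.20 for Fgf15. From d4 to d6 it was 1.19 for Fgf4, 3.61 for Fgf5, 1.52 for Fgf8 and -3.52 for Fgf15. For Fgf15 the opposite signs go with levels that differed at d4 and overlapped at d6. For Fgf5, Fgf8 and Fgf15 the first step starts from d0 libraries with 0 to 9 reads, so its size depends on the pseudocount. With 3 libraries per group, no test for an outlying library was made.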

How the results depend on the processing

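Each of 36 results for the ligands (9 comparisons of 4 genes) was recomputed under up to 27 alternatives, giving 963 values, of which 946 kept the direction and the side of the threshold; 30 results kept both throughout, among them every KO minus Ctrl difference at d0, d4 and d6. A minimum mean TPM of 10 left no value for Fgf8. The Fgf4 step from d4 to d6 in KO lost its call with quantile normalization (-0.39), with a fit to the compared groups only (-0.47, adjusted p = 0.0516), without the eBayes trend (-0.47, adjusted p = 0.0105) and with a replicate block (-0.47, adjusted p = 0.0103), and ranged from -0.67 to -0.35 when single libraries were left out. The genotype difference in the d0 to d4 change of Fgf5 was 2.81 with voom on recovered reads and no longer called (adjusted p = 0.0422). That of Fgf8 from d4 to d6 was not called with a pseudocount of 0.1 (1.58) or with voom (1.52). The Ctrl steps of Fgf8 reversed with quantile normalization (-0.29 to d4, -0.03 to d6), and the second also without Ctrl d4 replicate 2 (-0.06) or Ctrl d6 replicate 2 (-0.04), in a range of -0.06 to 0.28. The first Ctrl step of Fgf15 reversed with quantile normalization (-0.20), was called without Ctrl d0 replicate 1, and ranged from 0.39 to 0.88. The cause of these changes was not tested. Counts of calls over the 58 pathway genes together moved by less than 1.5 times under these alternatives. Libraries with the same replicate number deviated together weakly for replicate 1 (r from 0.077 to 0.231 between groups) and replicate 2 (0.148 to 0.244) and not for replicate 3 (-0.077 to 0.079), and 15 of 18 libraries correlated best with their own number. The study describes 3 independent experiments per stage, and whether a replicate number stands for the same experiment across groups is not given in the sources used here. Since not each pair passed 0.1 and the labels name no shared batch, the numbers were not taken to pair the samples. With the replicate block 23, 36 and 41 pathway genes were called at d0, d4 and d6, and no other call of a ligand changed. Depth limits Fgf8 in Ctrl and 3 of the ligands at d0.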
